A study of Homo sapiens with 4 samples.

Results

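The RNA levels of 10 human genes of DNA methylation maintenance, chromatin assembly and the nuclear lamina are described here: UHRF1, DNMT1, DNMT3A, DNMT3B, HELLS, CHAF1A, CHAF1B, ASF1B, LMNB1 and LMNB2. The members were taken by symbol from the deposited gene table, and all 10 were found among 18650 loci above 0 in at least 1 library. They were chosen on their measured values in the comparison of treated with untreated HT-29 cells, so every value in that comparison describes the choice and tests nothing. A difference of fold changes between the lines contains the HT-29 value, so it carries the same choice. The lists of other genes were set up with earlier results of these data known as well.

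RNA-seq was carried out on 2 human colon cell lines, HT-29, an established colorectal adenocarcinoma line, and NCM460, an established line from normal colon epithelium. Each line was grown without treatment (control) or with sturgeon chondroitin sulfate (SCS), a glycosaminoglycan prepared from sturgeon, at 100 μg/mL for 24 h. Each of the 4 conditions is 1 library, so no difference has a replicate check and no p-value is given. All groups are unsorted cultures of 1 line each, and a difference between the lines may belong to these cultures rather than to tumour or normal colon. The paper's culture methods name a higher share of fetal bovine serum for NCM460 than for HT-29. Line and serum therefore cannot be told apart.

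When DNA is copied, the new strand carries no methyl groups at first. UHRF1 binds such half-methylated CpG sites and recruits DNMT1, which restores the mark, while DNMT3A and DNMT3B place methyl groups on unmethylated sites. HELLS is a nucleosome remodeller needed for methylation of compact chromatin. CHAF1A and CHAF1B, subunits of chromatin assembly factor 1, receive histones H3 and H4 from the chaperone ASF1B and load them behind the replication fork. LMNB1 and LMNB2 encode B-type lamins of the nuclear lamina, and loss of LMNB1 is widely used as a mark of cells that have left the cycle for good.

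The 4 libraries held from 1156568 to 1654764 fragments, of which 507692 to 1383424 came from the nuclear genome. The share from the mitochondrial genome was 35.8% in untreated and 13.8% in SCS-treated HT-29, and 62.3% in untreated and 46.3% in SCS-treated NCM460. Levels are given as fragments and as CPM, which are fragment counts divided by library sizes scaled with edgeR's TMM factors, and intervals in brackets are 95% intervals of counting error. Of 12 colon epithelium markers, 10 and 9 were above 0 in HT-29 control and SCS and 6 in each NCM460 library. KRT8, KRT18, KRT19, EPCAM and CDH1 were present in all libraries, CDX1 was at 0 in all, CDX2 was at 0 in HT-29, and KRT20, VIL1, LGALS4 and CEACAM5 were at 0 in NCM460. The defining markers PTPRC, CD3E and CD14 of leukocytes and COL1A2, COL3A1, DCN and LUM of fibroblasts were at 0 in every library. Above 0 were 2 to 3 of 8 leukocyte markers (MS4A1 and ITGAM with at most 8 fragments, and CD68, whose locus holds EIF4A1), 3 to 4 of 9 fibroblast markers (COL1A1, PDGFRB and THY1 with at most 17, and PDGFRA, whose locus holds FIP1L1) and 2 to 3 of 5 endothelial markers (PECAM1, CDH5, VWF, KDR and TEK with at most 6).

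In HT-29, 7 of the 10 genes were lower with SCS and none was higher. A gene was called where its fold exceeded 1.5 and its counting interval excluded 0, and this rule called 14.8% of 12168 loci lower and 16.8% higher in the same pair of libraries. UHRF1, HELLS and LMNB1 had the largest differences, then DNMT1, ASF1B, CHAF1A and LMNB2. DNMT3A, DNMT3B and CHAF1B were not called. The 10 genes together held 1337 fragments in the control and 382 with SCS, or -2.04 on the log2 scale (-2.21 to -1.87). Their median log2 fold change was -1.86, beside 0.07 over all loci compared. In bulk RNA, fewer cells that express a gene and less RNA per cell cannot be told apart. The mitochondrial share differed between the same libraries, and with scaling to nuclear fragments alone the same number of genes was called, 7 lower and 0 higher. Of all loci, 3793 of 13330 were then called, 60.5% of them lower. Scaling to total fragments moved the median of all loci in HT-29 to 0.32 and in NCM460 to 0.57. Total fragments called 7 of the genes lower and 1 higher in HT-29, beside 4263 of 12658 loci called, 26.2% of them lower.

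**Figure D1:**
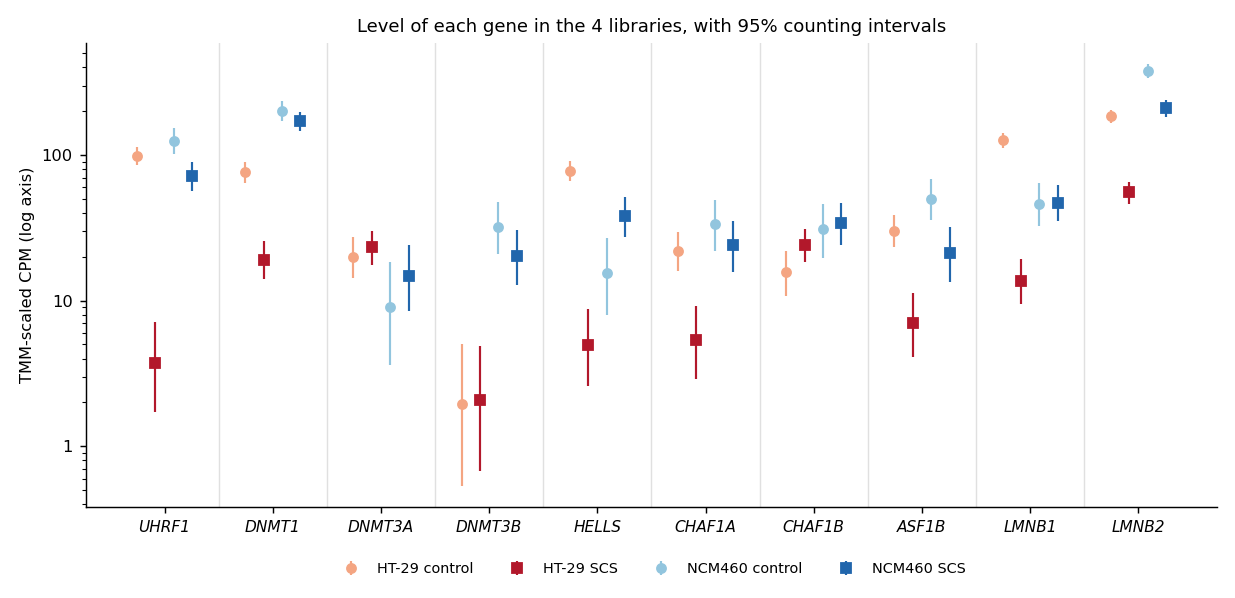
Level of each of the 10 genes in TMM-scaled CPM on a log axis, with 1 point per library and 95% counting intervals. The red squares, HT-29 with SCS, are the lowest of the 4 libraries for UHRF1 (3.75 CPM), HELLS (4.99, with an interval that overlaps that of the NCM460 control) and LMNB1 (13.7), and the highest for DNMT3A (23.3).

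In NCM460, the control and SCS libraries were closer for these genes. Of the 10 genes, 3 were called lower (UHRF1, ASF1B and LMNB2) and 1 higher (HELLS), against 13.8% of 12657 loci called lower and 15.4% called higher. The median was -0.34, and the range ran from -1.19 for ASF1B to 1.23 for HELLS. Fold changes in this line followed the GC content of the transcript, and after the GC trend of all loci was subtracted, 0 of the 10 genes were called, beside 6.3% of 12600 loci lower and 5.61% higher. In HT-29 the same subtraction left 7 genes lower and 0 higher, with 15.9% of 12106 loci lower and 14.5% higher. Scaling to total fragments in NCM460 called 0 genes lower and 4 higher, beside 4193 of 12096 loci called, 5.91% of them lower.

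**Figure D2:**
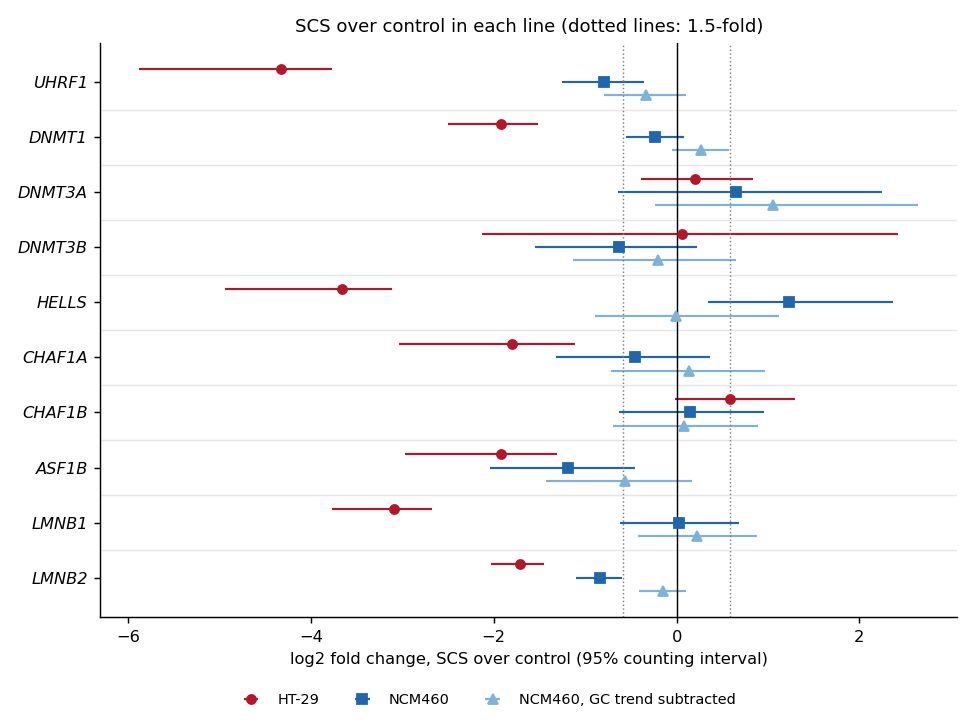
Log2 fold change of SCS over control for each gene in HT-29 (circles), NCM460 (squares) and NCM460 after subtraction of the GC trend (triangles), with 95% counting intervals and dotted lines at 1.5-fold. The HT-29 intervals of 7 genes end at or below -1.11, and every GC-subtracted NCM460 interval includes 0.

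Where the table gives several overlapping genes the same values in all libraries, they were treated as 1 locus, and the count cannot be split between them. This touched 4 of the 10 genes. DNMT1 shares its value with S1PR2, HELLS with RP11-119K6.6, CHAF1B with MORC3 and AP000692.9, and LMNB2 with TIMM13 and MIR7108. The other 6 stand alone in their locus, and of these 4 were called lower in HT-29 (UHRF1, CHAF1A, ASF1B and LMNB1), with a median of -1.86.

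The promoters were examined for what the genes share beyond their RNA levels. All 10 genes were found in the RefSeq promoter table (GRCh38.p14), in which each window runs from 250 bases before to 50 after an annotated start. UHRF1 has 3 windows, DNMT3A 6, LMNB1 2 and the others 1 each, 18 in all. Most are CpG-rich, with a median over the 18 windows of 10.0 CpG per 100 bases beside 4.67 over all 35116 windows. Genes with several windows count several times in the 10.0. DNMT3B has 1.0, and LMNB1 start 1 (5.33) and DNMT3A starts 3 and 5 (6.0 each) are little above 4.67. The windows were searched on both strands for words of the E2F site, through which the cell cycle factors of the E2F family bind (TTTCGCGC, TTTGGCGC, TTTCCCGC, GGCGGGAA and GCGGGAAA, of which some overlap), for the cell cycle homology region CHR (TTTGAA) and for the CCAAT box bound by NF-Y (CCAAT). UHRF1, DNMT1, HELLS and CHAF1A, 4 of the 10 genes, hold an E2F word in at least 1 window, as do 6.03% of 27305 genes in the table and 10.0% of the 14185 genes with a window of at least 5 CpG per 100 bases. The other 6 hold none, of which ASF1B, LMNB1 and LMNB2 were called lower in HT-29 and DNMT3A, DNMT3B and CHAF1B were not. The genes were chosen on those HT-29 values, and nothing about the cause of the values is read from the words. The CHR is found in 3 of the 10 genes (DNMT3A, ASF1B and LMNB2) and in 18.2% of all genes, and the CCAAT box in 6 of the 10 and in 39.7% of all genes. Among the 14185 genes with a CpG-rich window these shares are 7.98% for the CHR and 35.1% for the CCAAT box. DNMT3A has more windows, hence more letters in which a word can occur. A match describes the letters only, and a missing match says nothing of the factor.

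The stretches printed are the 4 with an E2F word and that of ASF1B, all of genes called lower in HT-29. A CHR of DNMT3A, which was not called, lies at bases 21 to 26 of its listed start 5 and is not printed. In each printed stretch a match lies close to the start. Each runs 5′ to 3′ on the strand of the gene from base -110 to base 6 around the first listed start, where 1 is the first transcribed base. Capitals mark E2F words on either strand in the first 4, and the CHR and a CCAAT box (read on the other strand) in ASF1B. The UHRF1 stretch is chr19:4909391-4909506 on the + strand, DNMT1 chr19:10194948-10195063 on the - strand, HELLS chr10:94545678-94545793 on the + strand, CHAF1A chr19:4402530-4402645 on the + strand and ASF1B chr19:14136584-14136699 on the - strand, all on GRCh38.p14.
UHRF1: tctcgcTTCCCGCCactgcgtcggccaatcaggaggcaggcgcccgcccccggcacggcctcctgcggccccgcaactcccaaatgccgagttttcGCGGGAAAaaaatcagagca
DNMT1: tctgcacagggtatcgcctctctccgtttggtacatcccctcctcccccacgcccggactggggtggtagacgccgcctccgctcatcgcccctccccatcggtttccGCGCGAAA
HELLS: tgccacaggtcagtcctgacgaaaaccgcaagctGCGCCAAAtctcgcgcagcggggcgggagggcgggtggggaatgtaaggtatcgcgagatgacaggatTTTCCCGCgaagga
CHAF1A: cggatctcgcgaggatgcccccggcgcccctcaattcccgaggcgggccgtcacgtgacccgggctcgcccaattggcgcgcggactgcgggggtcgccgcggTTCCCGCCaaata
ASF1B: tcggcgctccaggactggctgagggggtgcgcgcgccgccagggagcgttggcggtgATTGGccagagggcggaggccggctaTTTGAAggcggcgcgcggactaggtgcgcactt

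In the UHRF1 stretch an E2F word lies at bases -14 to -7 and another at -104 to -97. In HELLS they lie at -8 to -1 and -76 to -69, in CHAF1A at -7 to 1, and in DNMT1 at -2 to 6, across the start itself. The CHR of ASF1B lies at -27 to -22, with a CCAAT box at -53 to -49.

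**Figure D3:**
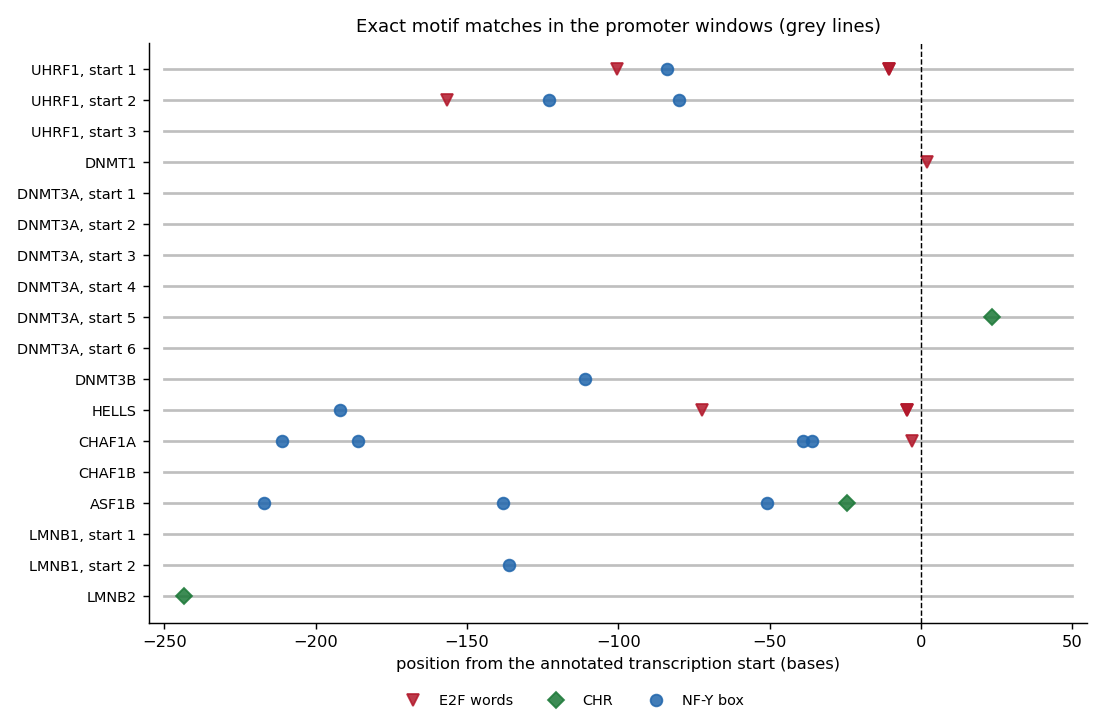
Exact matches to the E2F words, the CHR and the NF-Y (CCAAT) box in the 18 promoter windows of the 10 genes, by position from the annotated start in bases. E2F words lie within 14 bases of the start in UHRF1 (first start), DNMT1, HELLS and CHAF1A, and 8 windows hold no match of any kind, 5 of them of DNMT3A.

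UHRF1 (ENSG00000276043, chr19:4903080-4962154 in the table, GRCh38) had 203 fragments in untreated and 9 in SCS-treated HT-29, and 98 in untreated and 78 in SCS-treated NCM460. In the same order these are 99.2, 3.75, 126 and 72.1 CPM. The level in HT-29 with SCS stood apart, below the lower counting limit of the other 3 libraries. The log2 fold change in HT-29 was -4.33 (-5.88 to -3.77), 26.5-fold lower in CPM, and 2 of the 12168 loci compared had a more negative value. In NCM460 it was -0.79 (-1.25 to -0.36), and -0.34 (-0.79 to 0.10) after subtraction of the GC trend. The difference between the lines was -3.53 (-5.14 to -2.82), or -3.94 (-5.55 to -3.22) with the trend subtracted. Among the alternatives the HT-29 value ran from -4.61 to -3.83.

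UHRF2, the paralog of UHRF1 that binds half-methylated DNA but does not replace it in maintenance, was used as a partner within each library, since a ratio of 2 genes in 1 library does not depend on the scaling. It does keep the difference of the GC trends of both genes, so NCM460 ratios are also given with that difference subtracted, an alternative added after seeing the data. UHRF2 had 18 fragments in the HT-29 control and 36 with SCS, so that UHRF1 went from 11.3 fragments per UHRF2 fragment to 0.25, a log2 change of the ratio of -5.45 (-6.92 to -4.13). In NCM460 the ratio was 9.8 in the control and 4.59 with SCS, a change of -1.09 (-2.46 to 0.21), or -0.017 (-1.39 to 1.28) with the trends subtracted. Against USP7, the deubiquitinase that stabilises both UHRF1 and DNMT1, the ratio changed by -4.69 (-5.89 to -3.68) in HT-29 and by -1.01 (-1.73 to -0.31) in NCM460, where subtraction of the trends left -0.14 (-0.85 to 0.57).

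DNMT1 (ENSG00000130816, chr19:10133345-10231286), the maintenance methyltransferase, had 156 and 46 fragments in the HT-29 control and SCS libraries and 157 and 185 in those of NCM460. Its CPM were 76.2, 19.1, 202 and 171, so that the SCS library of HT-29 was the lowest of the 4 and the NCM460 libraries the highest. The log2 fold change was -1.93 (-2.50 to -1.51) in HT-29 and -0.23 (-0.55 to 0.08) in NCM460, a difference of -1.69 (-2.35 to -1.17). With the GC trend subtracted the NCM460 value was 0.26 (-0.05 to 0.58) and the difference -2.13 (-2.78 to -1.61). Total fragments gave 0.45 (0.14 to 0.77) in NCM460, which is not called. The difference in HT-29 was wider for UHRF1 than for DNMT1. The UHRF1 to DNMT1 ratio went from 1.30 to 0.196 in HT-29, a log2 change of -2.73 (-3.99 to -1.62), and from 0.624 to 0.422 in NCM460, a change of -0.56 (-1.12 to -0.01), or -0.61 (-1.16 to -0.06) with the trends subtracted.

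The methyltransferases of unmethylated sites had few fragments and were not called lower in HT-29. DNMT3A (ENSG00000119772, chr2:25227855-25342590) had 41 and 56 fragments in HT-29 and 7 and 16 in NCM460, with log2 fold changes of 0.21 (-0.39 to 0.84) and 0.65 (-0.64 to 2.24). DNMT3B (ENSG00000088305, chr20:32762385-32809356) had 4 and 5 fragments in HT-29 and 25 and 22 in NCM460, with log2 fold changes of 0.06 (-2.13 to 2.42) and -0.63 (-1.55 to 0.23). With so few fragments no change of DNMT3B in HT-29 inside this wide interval was detectable, while the interval of DNMT3A excludes a value as low as that of DNMT1.

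HELLS (ENSG00000119969, chr10:94501434-94613905), the remodeller, had opposite signs in the lines. It had 159 fragments in untreated and 12 in SCS-treated HT-29, and 12 in untreated and 41 in SCS-treated NCM460. These are 77.7, 4.99, 15.4 and 37.9 CPM, and HT-29 was the higher line without SCS and the lower line with it. The log2 fold change was -3.66 (-4.94 to -3.12) in HT-29, where 9 loci had a more negative value, and 1.23 (0.34 to 2.36) in NCM460. HELLS has the lowest transcript GC content of the 10 genes, 37.6%, and the GC trend at that content in NCM460 was 1.24. With the trend subtracted its NCM460 value was -0.0048 (-0.89 to 1.13), and the difference between the lines was -3.91 (-5.62 to -2.87) in place of -4.89 (-6.60 to -3.85). SMARCA5, the ATPase of the ISWI remodellers, had 186 and 196 fragments in HT-29, and the ratio of HELLS to it changed by -3.80 (-4.83 to -2.89). In NCM460 that ratio changed by -0.31 (-1.64 to 1.05), or -0.39 (-1.72 to 0.97) with the difference of both GC trends subtracted.

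Of the histone chaperones, CHAF1A and ASF1B were lower in HT-29 and CHAF1B was not. CHAF1A (ENSG00000167670, chr19:4402662-4445018), the large subunit of chromatin assembly factor 1, had 45 and 13 fragments in HT-29 and 26 in each NCM460 library. Its CPM were 22.0, 5.41, 33.4 and 24.0, again with HT-29 with SCS below the others, and its log2 fold changes were -1.80 (-3.04 to -1.11) and -0.45 (-1.32 to 0.37). CHAF1B (ENSG00000159259, chr21:36385378-36419015), the middle subunit, had 32 and 58 fragments in HT-29 and 24 and 37 in NCM460, with log2 fold changes of 0.59 (-0.02 to 1.30) and 0.14 (-0.63 to 0.96). Its reads cannot be told from those of MORC3, so the value is that of the locus. Under total-fragment scaling CHAF1B was called higher in HT-29, at 0.86 (0.25 to 1.57). RBBP4, the small subunit, had 308 and 207 fragments in HT-29, and the ratio of CHAF1A to it changed by -1.22 (-2.27 to -0.26). With the trends subtracted this was -0.99 (-2.04 to -0.03). In NCM460 the ratio changed by -0.83 (-1.78 to 0.12), or 0.68 (-0.27 to 1.63) with the trends subtracted.

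ASF1B (ENSG00000105011, chr19:14119509-14136956) had 62 and 17 fragments in HT-29 and 39 and 23 in NCM460. At 30.3, 7.07, 50.1 and 21.3 CPM it was the one chaperone of the 3 called lower in both lines, with log2 fold changes of -1.92 (-2.97 to -1.31) and -1.19 (-2.05 to -0.46). The GC trend at the GC content of ASF1B was -0.62 in NCM460, and its subtraction left -0.57 (-1.42 to 0.17), which is not called. The difference between the lines, -0.73 (-2.01 to 0.32), includes 0 and reached -1.30 (-2.57 to -0.24) with the trend subtracted. ASF1A, the paralog that is not tied to proliferation, had 10 and 19 fragments in HT-29, and the ratio of ASF1B to it went from 6.2 to 0.895, a log2 change of -2.76 (-4.30 to -1.31). In NCM460 ASF1A had 3 and 7 fragments, too few to place the ratio, which changed by -1.96 (-4.67 to 0.34), or 0.01 (-2.71 to 2.31) with the trends subtracted.

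LMNB1 (ENSG00000113368, chr5:126776623-126837020) had 258 fragments in untreated and 33 in SCS-treated HT-29, and 36 in untreated and 51 in SCS-treated NCM460. These are 126, 13.7, 46.2 and 47.2 CPM, so with TMM scaling the NCM460 libraries were alike and lay between those of HT-29. With total fragments the NCM460 log2 fold change was 0.69 (0.08 to 1.38), which is called higher, and by FPKM it was -0.61. With TMM scaling the log2 fold change was -3.09 (-3.77 to -2.67) in HT-29, 9.18-fold lower in CPM, and 0.03 (-0.61 to 0.69) in NCM460, a difference of -3.11 (-4.06 to -2.35). LMNB2 (ENSG00000176619, chr19:2427638-2456996) had 377, 133, 294 and 227 fragments, or 184, 55.3, 377 and 210 CPM. Its locus was lower with SCS in both lines, with log2 fold changes of -1.71 (-2.03 to -1.45) and -0.84 (-1.10 to -0.59), and subtraction of the GC trend left -0.15 (-0.41 to 0.10) in NCM460.

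The A-type lamin gene LMNA had 1116 fragments in the HT-29 control and 616 with SCS. LMNB1 per LMNA went from 0.231 to 0.0536 in HT-29, a log2 change of -2.11 (-2.70 to -1.56), and from 0.0907 to 0.143 in NCM460, a change of 0.65 (-0.03 to 1.35), or 0.16 (-0.52 to 0.85) with the trends subtracted. LMNB1 per LMNB2 changed by -1.46 (-2.11 to -0.85) in HT-29 and by 0.87 (0.18 to 1.58) in NCM460, where subtraction of the trends left 0.38 (-0.32 to 1.09). In HT-29 the level of LMNB1 was lower relative to both other lamin loci, with intervals that exclude 0.

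**Figure D4:**
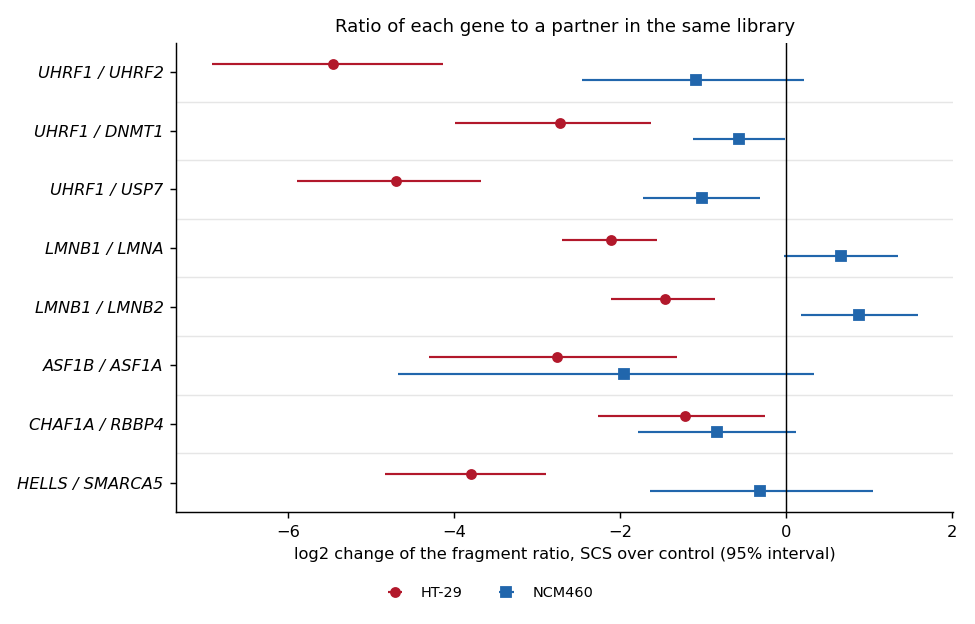
Log2 change with SCS of the fragment ratio between a gene and a partner of the same library, for HT-29 (circles) and NCM460 (squares), with 95% conditional intervals of the odds ratio. All 8 ratios are lower with SCS in HT-29 with intervals that exclude 0, from -5.45 for UHRF1 to UHRF2 up to -1.22 for CHAF1A to RBBP4. Every numerator is a gene called lower in HT-29, and DNMT3A, DNMT3B and CHAF1B were given no ratio. The common direction in HT-29 therefore follows from the choice and tests nothing.

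The GC content of the transcripts matters for NCM460 more than for HT-29. Across loci that averaged 10 CPM or more in the line, Spearman's rho between GC content and the log2 fold change was -0.74 in NCM460 (7342 loci) and -0.17 in HT-29 (7538 loci). Across the 10 genes, whose GC content runs from 37.6% for HELLS to 61.4% for the LMNB2 locus, rho was -0.85 in NCM460 and 0.02 in HT-29. The points of each correlation share a pair of libraries. UHRF1, DNMT1, CHAF1A, ASF1B and LMNB2 lie on chromosome 19, which holds 6.45% of the loci compared in NCM460. There 33.8% of the chromosome's loci were called lower and the median was -0.62, or -0.09 with the trend subtracted, while in HT-29 13.1% of its loci were called lower and the median was 0.03.

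**Figure D5:**
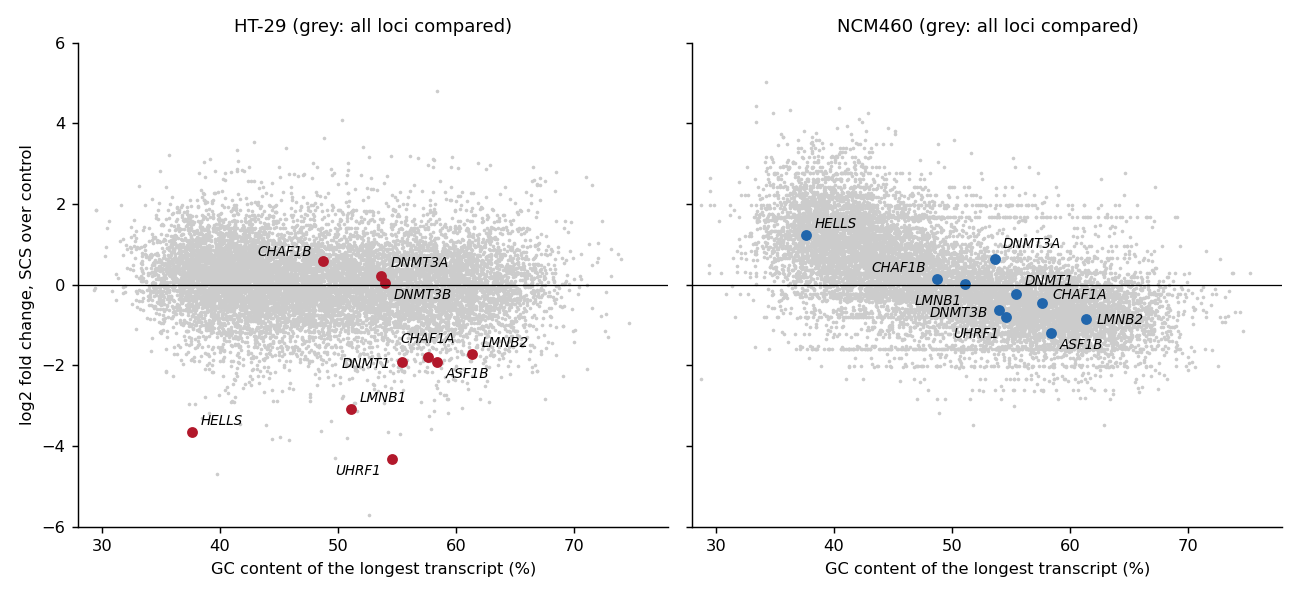
Log2 fold change of SCS over control against the GC content of the longest transcript, for HT-29 (left) and NCM460 (right), with the 10 genes in colour over all loci compared in grey. In NCM460 the genes lie along the slope of the grey points from HELLS at 1.23 to ASF1B at -1.19, and in HT-29 7 genes lie at or below -1.71 across the range of GC content.

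Without SCS the 10 genes were above 0 in both lines, which differed in the level of some of them. Relative to the NCM460 control, 5 of the 10 genes were lower in the HT-29 control (DNMT1, DNMT3B, CHAF1B, ASF1B and LMNB2) and 2 higher (HELLS and LMNB1), beside 23.1% and 25.3% of 12691 loci. DNMT3B was the most unequal, with 1.96 CPM in HT-29 and 32.1 in NCM460, a log2 fold of -3.37 (-6.02 to -2.50). HELLS was higher in HT-29 by 2.24 (1.49 to 3.32) and LMNB1 by 1.42 (0.94 to 1.99). UHRF1, at -0.34 (-0.70 to 0.02), was among the others. Subtraction of the GC trend gave another split, in which 3 genes were lower (DNMT1, DNMT3B and CHAF1B) and 3 higher (DNMT3A, HELLS and LMNB1), beside 19.2% and 18.6% of 12648 loci. HELLS then stood at 0.84 (0.08 to 1.91) and LMNB1 at 1.64 (1.15 to 2.21). By the deposited FPKM, HELLS had 2.37 and LMNB1 0.58, the latter under 1.5-fold. Total-fragment scaling, under which the median of all loci was 1.04, turned CHAF1B, ASF1B, LMNB2, CHAF1A and UHRF1 to positive values. UHRF1 then stood at 0.74 (0.40 to 1.12), which is called higher, and CHAF1A at 0.47 (-0.23 to 1.25).

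Levels can be compared between genes only per length, and for this the deposited FPKM were read, with counting intervals. The relation of FPKM to fragments between genes differed by library. UHRF1 and DNMT1 had 203 and 156 fragments and 26.5 and 11.1 FPKM in the HT-29 control. In the NCM460 control they had 98 and 157 fragments and 41.1 and 64.5 FPKM. The intervals do not cover this, and its part in the order was not tested. In the HT-29 control the order was LMNB2 (60.4), LMNB1 (44.7), UHRF1 (26.5), HELLS (22.6), ASF1B (16.5), DNMT1 (11.1), CHAF1A (4.84), DNMT3A (3.28), CHAF1B (2.89) and DNMT3B (0.46). UHRF1 and HELLS, HELLS and ASF1B, ASF1B and DNMT1, CHAF1A and DNMT3A, and DNMT3A and CHAF1B had overlapping intervals. With SCS, UHRF1 stood above DNMT3B alone in HT-29 at 0.743 FPKM, with an interval that overlapped those of its neighbours HELLS and DNMT3B (0.358). In NCM460, UHRF1 stood at 41.1 FPKM in the control, behind LMNB2 and DNMT1, and at 18.5 with SCS, where its interval overlapped those of LMNB1 (19.1) and HELLS (16.4).

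Loci whose profile over the 4 libraries was most alike were ranked by the root mean square difference of centred log2 CPM, among 7799 loci that averaged 10 CPM or more. For UHRF1 they were UNG, which removes uracil from DNA (0.33), TYMS, the thymidylate synthase (0.36), MCM5 (0.52), FGFR3 (0.53) and MCM3 (0.53). UNG had 116, 7, 43 and 40 fragments in HT-29 control, HT-29 SCS, NCM460 control and NCM460 SCS, and TYMS had 98, 3, 65 and 71. For LMNB1 they were CDC45, a subunit of the replicative helicase (0.10), SKP2 (0.19), HS3ST1 (0.22), THRIL (0.22) and the transcription factor E2F1 (0.23). For DNMT1 they were ALDH1B1 (0.07), NEK6 (0.09), THOP1 (0.11), BTG2 (0.12) and CCDC85B (0.14). The rankings rest on 4 libraries and are descriptions.

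Other genes of DNA methylation were called in both directions in HT-29. Of 27 readers, erasers and partners of the methylation machinery compared, 9 were called lower and 4 higher, with a median of -0.34, beside the 14.8% of all loci lower and 16.8% higher. The largest differences were in CDCA7, which recruits HELLS to chromatin, with 47 and 6 fragments and -2.69 (-4.72 to -1.97), and in PCNA, the sliding clamp that ties DNMT1 to the fork, with 216 and 38 and -2.64 (-3.28 to -2.24). GADD45B and GADD45A, stress-induced genes linked to demethylation, were higher by 2.09 (1.22 to 4.28) and 1.42 (0.88 to 2.15). In NCM460, 6 of 28 were lower and 5 higher, beside 13.8% and 15.4% of all loci. They were led by TRIM28 at -1.04 and EHMT2 at -0.83 below and HDAC2 at 2.09 and MBD2 at 1.87 above. With the GC trend subtracted 0 were lower and 3 higher, beside 6.3% and 5.61% of all loci.

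Of 30 further histone chaperones and import factors, 9 were lower and 1 higher in HT-29, beside 14.8% and 16.8% of all loci. Their median was -0.43. Scaling to nuclear fragments gave 14 lower and 1 higher, beside 3793 of 13330 loci called, 60.5% of them lower. NASP, which holds the soluble pool of H3 and H4, gave 183 and 64 fragments, or -1.70 (-2.18 to -1.33) on the log2 scale, and HJURP, the chaperone of the centromeric histone, had 60 and 20, or -1.67 (-2.63 to -1.07). UBN2, of the replication-independent HIRA complex, was higher by 1.21 (0.88 to 1.60). In NCM460, 5 were lower, led by SUPT6H at -1.34 and CABIN1 at -1.21, and 12 higher, led by MMS22L, which gave 2 and 27 fragments, or 2.77 (1.29 to 6.40), and by MIS18A, with 0 and 14. Of all loci in NCM460, 13.8% were lower and 15.4% higher. With the trend subtracted the list had 2 lower and 6 higher, beside 6.3% and 5.61% of all loci.

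Of 21 genes of the lamina and inner nuclear membrane, 5 were lower and 2 higher in HT-29, beside 14.8% and 16.8% of all loci. The median, -0.03, was near that of all loci. TMPO, a partner of the lamins, had 293 and 101 fragments, or -1.74 (-2.11 to -1.44), and ICMT, which methylates the farnesylated end of the lamins, had 196 and 80, or -1.49 (-1.92 to -1.14). SYNE1, a nesprin of the outer nuclear membrane, was higher by 1.96 (1.41 to 2.81), and the locus of FNTA, a farnesyltransferase subunit, by 1.01 (0.46 to 1.69). In NCM460, 6 of 22 were lower, led by NRM at -1.59 and SYNE3 at -1.49, and 5 higher, led by TOR1AIP1 at 2.15 (0.54 to 5.77, from 2 and 17 fragments) and LBR at 1.79. Of all loci in NCM460, 13.8% were lower and 15.4% higher. With the trend subtracted the lamina list had 0 lower and 1 higher, beside 6.3% and 5.61% of all loci.

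HELLS was set beside 17 other remodellers of the SNF2 family. In HT-29, 3 of them were lower and 5 higher, beside 14.8% and 16.8% of all loci, with a median of -0.04. Total-fragment scaling gave 1 lower and 6 higher, beside 4263 of 12658 loci called, 26.2% of them lower. SMARCA4 was lower by the widest margin, at -1.11 (-1.45 to -0.82), and SMARCA2 was at -0.83. SMARCAD1 at 1.13 and the CHD9 locus at 1.10 were the highest. In NCM460 1 was lower, the SRCAP locus at -1.27, and 6 higher, led by the CHD9 locus at 2.27 and SMARCA1 at 1.93. Of all loci in NCM460, 13.8% were lower and 15.4% higher. With the trend subtracted 1 remodeller was lower, the SRCAP locus, and 1 higher, CHD2, beside 6.3% and 5.61% of all loci. The CHD9 locus then had 1.07 (-0.16 to 3.29) and SMARCA1 0.80 (-0.49 to 3.03).

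Genes of the cell cycle differed between the same HT-29 libraries. Over all loci, 14.8% were called lower and 16.8% higher in HT-29, and 13.8% and 15.4% in NCM460. With the GC trend subtracted the NCM460 shares were 6.3% and 5.61%. The 6 MCM helicase genes were all called lower, with a median of -2.88, led by MCM4 at -3.62 (-4.40 to -3.19) and MCM3 at -3.13 (-4.03 to -2.65). Of 13 mitotic genes 11 were lower and 0 higher, with a median of -1.03, led by AURKB at -2.16 and TPX2 at -1.84. Of 20 E2F and DREAM regulators 8 were lower and 4 higher, led by MYBL2 at -3.05 and E2F8 at -2.57 (-5.82 to -1.76, from 28 and 3 fragments) below and by CDKN1A, the CDK inhibitor p21, at 3.12 (2.66 to 3.90) and E2F7 at 0.95 above. These counts in HT-29 differed by at most 1 gene under the other 3 scalings tested. In NCM460, 2 MCM genes were lower (MCM2 at -0.72 and MCM5 at -0.65) and 2 higher (MCM6 at 0.90 and MCM4 at 0.80). There 1 mitotic gene was lower, PLK1 at -1.79, and 5 were higher, led by CDK1 at 1.86 and KIF11 at 1.69. Of the regulators in NCM460 3 were lower, led by FOXM1 at -1.65 and MYBL2 at -1.21, and 5 higher, led by RBL1 at 2.38 (0.49 to 8.64, from 1 and 13 fragments) and RBL2 at 2.25 (0.87 to 4.96, from 3 and 25). With the trend subtracted 0 MCM genes were lower and 1 higher (MCM4), 1 mitotic gene lower (PLK1) and 1 higher (BUB1B), and 2 regulators lower (FOXM1 and E2F7) and 1 higher (RBL2). Total-fragment scaling in NCM460 left at most 1 gene lower in each of these 3 lists, beside 248 of 12096 loci. The part of the share of cycling cells in the values of the 10 genes was not tested.

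The germline list holds 33 genes that promoter methylation commonly keeps silent in somatic cells. In HT-29 it gave 3 fragments in the control and 6 with SCS, from 2 genes in each library. MAGEC2 and SYCP3 accounted for those of the control, and STK31 with 5 fragments and DDX43 with 1 for those with SCS. In NCM460 MAGEB2 (43 and 66 fragments) and MAGEA3 (25 and 36) gave all 68 and 102, with 0 genes called. A count of 0 allows up to 3 fragments, or 1.25 CPM in HT-29 with SCS, for each of the other genes. These RNA levels say nothing of DNA methylation itself, which was not measured in these files.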

How the data were processed

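The authors extracted RNA with TRIzol, sequenced paired ends on an Illumina HiSeq and tested expression with Cuffdiff. The paper speaks of 3 biological replicates for its experiments in general, whereas the table used here has 1 library per condition. The submitters' processing notes name bcl2fastq 2.17.1.14, cutadapt 1.9.1, Bowtie2, HTSeq 0.6.1 and hg19, whereas the coordinates of the 10 genes in the table are those of GENCODE 29 on GRCh38. The deposited count columns are not whole but a signal, fragment counts that the authors divided by a size factor per library. The deposited FPKM were made by the authors as fragments per kilobase of transcript scaled to library size, and gave the order of levels and 1 alternative.

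Division by the worth of 1 fragment gave values within 0.05 of a whole number for 99.8% to 99.9% of the values above 0 (100% under 200 fragments), which were rounded. The design had assumed whole counts. The 26 rows with no gene name, at most 0.0352% of a library, were left out, and adjacent rows with identical values were merged, which gave 18650 loci.

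CPM used TMM factors over the 4 libraries (edgeR 4.0.16) and log2 values a prior count of 2. Loci that averaged 1 CPM in a pair were compared. Intervals of levels are exact Poisson, of fold changes exact Clopper-Pearson, of ratios conditional odds ratio intervals, and of differences between lines a combination of both lines' limits. All cover counting error only, and fragments without molecular identifiers are not independent molecules. The GC trend is a lowess curve (span 0.3) of the log2 fold change on the GC content of the longest GENCODE 29 transcript. The steps were tested on simulated data.

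The members, gene lists and named genes were chosen with earlier results of these data known. Of each list, the genes named are up to 2 called genes with the largest difference in each direction, taken per line from those averaging 5 CPM or more. 1 symbol, PCLAF, was found as KIAA0101 by its identifier. Alternatives were DESeq2 1.42.0 size factors, total or nuclear fragments, other prior counts and filters, GC and expression trends, thinning to 507692 nuclear fragments and FPKM (log2 of FPKM + 1). Calls by FPKM used the fold alone, without a counting interval. Members alone in their locus and GC-subtracted ratios were added after seeing the data.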

Additional observations from a re-analysis of the deposited data

Results flagged for a closer look

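The log2 fold change had opposite signs in HT-29 and NCM460 for 3 of the 10 genes. The difference of HT-29 minus NCM460 was -4.89 for HELLS, -3.11 for LMNB1 and 0.68 for DNMT3B. With 1 library per condition the difference was not tested, and it contains the HT-29 value on which the genes were chosen. The counting interval of the difference excluded 0 for HELLS (-6.60 to -3.85) and LMNB1 (-4.06 to -2.35) and included 0 for DNMT3B (-1.66 to 3.22). With the GC trend subtracted in both lines the differences were -3.91 for HELLS, -3.29 for LMNB1 and 0.31 for DNMT3B, and LMNB1 had 0.22 (-0.42 to 0.88) in NCM460. The signs depend on the scaling. HELLS kept opposite signs under every alternative tried except the GC trend. LMNB1 in NCM460 had -0.07 with DESeq2 size factors and -0.61 by FPKM, the sign it has in HT-29. DNMT3B had 1 sign in both lines with total fragments (0.24 in HT-29 and 0.03 in NCM460), nuclear fragments (-0.04 and -0.45), the expression trend (-0.08 and -0.72), thinning (-0.35 and -0.61) and FPKM (-0.10 and -0.77).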

How the results depend on the processing

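In HT-29 the 7 genes called lower (UHRF1, DNMT1, HELLS, CHAF1A, ASF1B, LMNB1 and LMNB2) were called lower under each of the 10 alternatives planned. By FPKM the call rests on the fold alone. The median of the 10 genes ran from -2.04 to -1.53. The paper's own list of changed HT-29 genes gives smaller falls for LMNB1 and LMNB2 than these alternatives, that for LMNB2 under 1.5-fold. The cause of that disagreement was not tested. Among the 6 genes alone in their locus, an alternative chosen after seeing the data, 4 were called in HT-29 and 2 in NCM460.

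In NCM460, where 4 genes were called, subtraction of the GC trend left 0 and subtraction of the expression trend 2 (1 lower and 1 higher). The deposited FPKM gave 7 (6 lower and 1 higher), by the looser rule of the fold alone. Scaling to total fragments gave 4 calls, 0 lower and 4 higher. The GC trend turned HELLS to -0.0048. Between the untreated lines, scaling to total fragments gave 5 calls (1 lower and 4 higher) and turned CHAF1B to 0.11, ASF1B to 0.36 and LMNB2 to 0.062. There 7432 of 12467 loci were called, 14.9% of them lower. The cause of these shifts was not tested. Over all loci in NCM460, 3690 of 12657 were called. With the GC trend subtracted 1501 of 12600 were, with the expression trend 3235 of 12657, and with total fragments 4193 of 12096. By FPKM 7474 of 12657 were called on the fold alone, so that count is not comparable with the others. The share of calls that were lower went from 47.3% to 5.91% with total fragments, 34.2% with nuclear fragments and 62.2% by FPKM. In HT-29 that share went from 46.9% to 26.2%, 60.5% and 59.4%.

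No paired analysis was possible because each condition has 1 library. Depth limits DNMT3B in HT-29, with 4 and 5 fragments, and DNMT3A in NCM460, with 7 and 16. The counts of DNMT1, HELLS, CHAF1B and LMNB2 are those of shared loci.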
